A study of Mus musculus with 4 samples.

Results

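The 10 genes described here, *Apoe*, *Trem2*, *Gpnmb*, *Lpl*, *Fabp4*, *Fabp5*, *Lipa*, *Abca1*, *Spp1* and *Plin2*, were chosen by name as genes of lipid handling that are often listed for lipid-associated macrophages. Earlier results of these data were known at that choice. All 10 were found among the 30406 genes listed in all 4 libraries of the study, and none of them was used to assign a cell to a type. They were followed in 8760 of 10837 cells, 4669 myeloid and 4091 stromal, that marker genes placed in 12 types. They did not behave as a single macrophage set. In these vessels the mean of the macrophage types was set against the mean of the stromal types. *Trem2*, *Fabp5*, *Apoe*, *Plin2*, *Spp1*, *Fabp4*, *Abca1* and *Lipa* were higher in macrophages, whereas *Gpnmb* and *Lpl* were higher in the stromal cells. Single macrophage and stromal values overlapped, however, for *Lpl*, *Spp1*, *Lipa*, *Abca1*, *Apoe* and *Fabp4*, and *Spp1* could be tested only with the TNF-Tg library in the fit. In the TNF-Tg library *Fabp5* was higher than in WT in each of the 8 types with enough counts, and *Apoe* was lower in 7 myeloid types. In neutrophils that difference in *Apoe* was within 2-fold once cells called doublets were removed, but past 2-fold with unsupervised clusters in place of gates. *Apoe* was also lower in TNF-Tg in T cells and erythroid cells, which are not known to make it. The part of this in the myeloid values was not tested. *Spp1* in *Lyve1*- macrophage-like cells had 84 UMIs in TNF-Tg against 3 in WT, and had enough counts there only through TNF-Tg.

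Macrophages take up lipoproteins, apoptotic cells and lipid debris. The lysosomal lipase encoded by *Lipa* frees cholesterol and fatty acids from what is taken up, *Fabp4* and *Fabp5* encode chaperones that carry fatty acids within the cell, and *Plin2* encodes a coat protein of lipid droplets. Surplus cholesterol leaves through the transporter encoded by *Abca1* onto apolipoproteins such as that of *Apoe*, and both genes are textbook targets of the sterol-sensing nuclear receptor LXR. *Lpl* encodes a secreted lipase that releases fatty acids from triglyceride-rich lipoproteins. *Trem2* encodes a surface receptor for lipids, *Gpnmb* a transmembrane glycoprotein of lysosomes and melanosomes, and *Spp1* the secreted phosphoprotein osteopontin. Macrophages that express many of these genes together have been described in adipose tissue, atherosclerotic plaque and other tissues.

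The study profiled the popliteal lymphatic vessels (PLVs), which drain the hindpaw, with the superficial saphenous vein beside them, by droplet single-cell RNA sequencing of the 3' ends of transcripts. Each of the 4 libraries pooled the vessels of 3 mice on a C57BL/6J background, and Evans blue had been injected into the hindpaw to find the vessels. The tdT1 and tdT2 libraries, the only replicates, held tdTomato-positive cells sorted from adult male and female mice with *Cspg4*-Cre, which marks pericytes, smooth muscle and some other lineages, and the Ai9-tdTomato reporter, so the leukocytes in them passed a sort that was set for reporter-positive cells. For WT and for TNF-Tg, male mice labelled as 9 months old (8 to 9 months in the methods) were used, and live cells were sorted by scatter. TNF-Tg mice carry a human TNF transgene and develop chronic inflammatory-erosive arthritis. With 1 library for WT and 1 for TNF-Tg, no test between them was possible. Genotype, pool of mice, sort and library cannot be told apart in that comparison.

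The libraries held 454 to 5488 cells and 2357031 to 68773605 unique molecular identifiers (UMIs, each counting 1 captured transcript), with medians of 4932.5 to 12660 UMIs per cell. Pairs of libraries shared 0 to 5 cell barcodes. Levels are given as counts per 1000000 (CPM) of the UMIs summed over all cells of a type in a library, and only sums of at least 20 cells are given. A type is a range cut from a marker score and not a discrete class, so its name carries "-like" or "gate". *Lyve1*+ macrophage-like cells numbered 47 in tdT2 and 1432 in WT, with 249 in TNF-Tg, and *Lyve1*- macrophage-like cells numbered 118 in WT against 163 in TNF-Tg. Their defining markers were present: the 8 genes shared by both macrophage types summed to 7192 to 18522 CPM in these sums. Within the *Lyve1*- gate the markers listed for it (*Ccr2*, *Cd93*, *Ly86*, *Sdc3*, *Mgl2* and *H2-Aa*) summed to 14054 CPM in WT against 3085 CPM in TNF-Tg. The 8 shared genes summed to 13392 and 7192 CPM, and no marker of either list was at 0. The listed markers took no part in the gate and were not particular to it. Their median score in TNF-Tg was 1.12 there, against 1.68 in *Ear2*+ phagocyte-like and 1.32 in *Cd209a*+ dendritic-like cells. Inflammatory monocyte markers in the *Lyve1*- gate summed to 954 and 878 CPM, and their median score was 0.327 in WT and 0.544 in TNF-Tg. The part of these shifts in the differences below was not tested. Of the *Lyve1*- cells, 27 in WT (22.9%) and 21 in TNF-Tg (12.9%) lay within 0.1 of a score cut. Most *Lyve1*- cells, 85.6% in WT against 95.7% in TNF-Tg, fell in the same unsupervised cluster. They made up only 31.4% of that cluster over all libraries. It also held 254 *Lyve1*+ cells of WT (17.7% of that gate). The cluster with most *Lyve1*+ cells held 1104 of the 1432 in WT against 244 of the 249 in TNF-Tg. The *Lyve1*+ gate thus differed in make-up between WT and TNF-Tg.

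The stromal cells are called LMC-gate and VSMC-gate cells after the lymphatic and venous muscle cell types whose marker genes chose them. The contractile markers that define smooth muscle were nearly absent from them: *Acta2* lay at 0 to 6.06 CPM and *Myh11* at 0 to 0.749 CPM, while the fibroblast marker *Pdgfra* lay at 362 to 692 CPM. The 6 adipocyte markers summed to 0 to 1.25 CPM in the stromal gates, where *Lpl* was high. Some of these genes were also found in lymphoid and red cells. T cells held *Apoe* at 974 CPM in WT against 22.0 CPM in TNF-Tg, and erythroid cells held it at 1917 and 29.4 CPM. Both are not known to make *Apoe*, and both held more of it in WT, above the 257 CPM of the LMC-gate cells of that library. *Fabp5* in T cells was 86.7 CPM in WT against 28.0 CPM in TNF-Tg, and in erythroid cells 7.71 and 9.79 CPM, and *Trem2* was 1.58 CPM in WT with 0 UMIs in TNF-Tg.

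Promoter sequences from RefSeq (GRCm38.p6) were at hand for 7 of the 10 genes. The windows of 250 bases ahead of the start sites of *Abca1* and *Apoe* are shown because these 2 efflux genes were both more than 2-fold lower in TNF-Tg than in WT *Lyve1*- cells, and that of *Trem2* because it had the largest excess in macrophages over stromal cells of the 10. Capitals mark matches, on either strand, to 1 of 5 motifs searched: the nuclear receptor half-site AGGTCA, the E-box CACGTG, the PU.1 core GAGGAA, the TATA box TATAAA and an NF-kappaB consensus site.
*Abca1*, chr4:53159896-53160145, minus strand: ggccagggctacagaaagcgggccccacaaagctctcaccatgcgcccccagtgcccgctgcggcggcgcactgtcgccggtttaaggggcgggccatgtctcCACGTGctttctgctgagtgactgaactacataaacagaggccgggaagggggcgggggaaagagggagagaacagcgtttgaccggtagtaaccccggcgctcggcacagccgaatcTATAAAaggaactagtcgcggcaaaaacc
*Apoe*, chr7:19699189-19699438, minus strand: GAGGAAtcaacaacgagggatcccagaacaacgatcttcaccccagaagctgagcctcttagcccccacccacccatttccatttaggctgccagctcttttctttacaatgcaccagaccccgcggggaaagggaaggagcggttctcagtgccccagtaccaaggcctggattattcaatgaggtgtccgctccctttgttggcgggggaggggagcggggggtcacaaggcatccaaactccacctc
*Trem2*, chr17:48346151-48346400, plus strand: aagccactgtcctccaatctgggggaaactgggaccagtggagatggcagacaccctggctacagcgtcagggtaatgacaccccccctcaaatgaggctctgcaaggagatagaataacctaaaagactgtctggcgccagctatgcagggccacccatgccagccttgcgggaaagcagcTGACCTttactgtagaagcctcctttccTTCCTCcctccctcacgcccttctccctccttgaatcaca
In the *Abca1* window an E-box begins 147 bases and a TATA box 29 bases ahead of the start site. The *Apoe* window holds 1 PU.1 core at its far end, 250 bases ahead of the start. The *Trem2* window holds a half-site 68 bases and a PU.1 core 40 bases ahead of the start, both read on the other strand. Such letters are common: of 32851 promoter windows of the same length, 14.0% held the half-site, 6.02% the E-box, 23.3% the PU.1 core and 12.4% the TATA box. The NF-kappaB site was in 0.140% of all windows and in none of the 10 windows of the 7 genes. A match describes the letters and does not show that a factor binds there.

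*Apoe* (chr7:19696244-19701310, minus strand, GRCm38.p6, as are the positions that follow) was taken first, as the secreted acceptor of cholesterol. Its level in *Lyve1*+ macrophage-like cells was 11061 CPM in tdT2 and 25425 CPM in WT, with 6885 CPM in TNF-Tg. In *Lyve1*- macrophage-like cells it was 21183 CPM in WT against 2384 CPM in TNF-Tg. Macrophages held the highest levels, and the TNF-Tg library was the lowest in both types. Inflammatory monocyte-like cells held 3320 CPM in tdT2 and 3288 CPM in WT, with 619 CPM in TNF-Tg. VSMC-gate cells held 2212 CPM in tdT1, 3056 in tdT2 and 1509 in WT, with 1912 in TNF-Tg, above LMC-gate cells in each library, where the values were 411, 936, 257 and 566 CPM. Over the 4 libraries *Apoe* was higher in VSMC-gate than in LMC-gate cells by 2.07 ± 0.61 on the log2 scale (SE; edgeR's quasi-likelihood test with library as a block, adjusted p = 0.0222). Without tdT1 that difference, 1.87, no longer passed, nor did it without the library term, at 2.08. *Lyve1*- and *Lyve1*+ cells did not differ beyond the error in *Apoe* (log2 difference -0.59 ± 0.78, adjusted p = 0.727).

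*Abca1*, the cholesterol exporter (chr4:53030789-53159988, minus strand), had its highest levels in *Lyve1*+ macrophage-like cells, at 343 CPM in tdT2 and 538 in WT, with 377 in TNF-Tg. *Lyve1*- cells held 265 CPM in WT against 100.9 CPM in TNF-Tg, below the *Lyve1*+ cells in both. LMC-gate cells held 187 CPM in tdT1, 117 in tdT2 and 208 in WT, with 93.7 in TNF-Tg. In VSMC-gate cells the values were 139, 36.9, 147 and 48.5 CPM, so the 2 tdT replicates alone spanned most of the range. Inflammatory monocyte-like cells held 10.7 CPM in tdT2 and 38.5 in WT, with 11.7 in TNF-Tg. *Abca1* was lower in *Lyve1*- than in *Lyve1*+ cells, with a log2 difference of -1.44 ± 0.40 (adjusted p = 0.0192), and 2.87 ± 0.45 higher in *Lyve1*- cells than in inflammatory monocyte-like cells (adjusted p = 6.95e-05).

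*Trem2*, the lipid receptor (chr17:48346401-48352276, plus strand), was high in macrophages and monocytes and at most 22.9 CPM in any other type measured. Its level was 172 CPM in WT against 152 CPM in TNF-Tg *Lyve1*- cells, and the counting interval of their ratio included no change (log2 -0.18, -0.42 to 0.06). In *Lyve1*+ cells it was 17.5 CPM in tdT2, from 3 UMIs, and 94.2 CPM in WT, with 33.1 CPM in TNF-Tg. Inflammatory monocyte-like cells held 96.7 CPM in tdT2 and 61.4 in WT, with 105.4 in TNF-Tg, and patrolling monocyte-like cells, numerous enough only in TNF-Tg, held 89.2 CPM. The stromal gates stayed at or under 1.35 CPM in all 4 libraries. Macrophages exceeded stromal cells by 6.77 ± 0.44 on the log2 scale (adjusted p = 6.75e-14), and *Lyve1*- exceeded *Lyve1*+ cells by 1.47 ± 0.42 (adjusted p = 0.0224).

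*Gpnmb*, the lysosomal glycoprotein (chr6:49036518-49058182, plus strand), was highest in stromal cells. VSMC-gate cells held 265 CPM in tdT1, 261 in tdT2 and 596 in WT, with 249 in TNF-Tg. LMC-gate cells held 177, 125, 268 and 176 CPM. The WT library stood above the other 3 in both gates, and the tdT1, tdT2 and TNF-Tg values lay close together in VSMC-gate cells. Macrophage-like cells of either kind held at most 7.49 CPM, in *Lyve1*- cells of TNF-Tg. *Gpnmb* was accordingly far lower in macrophages than in stromal cells, with a log2 difference of -6.60 ± 0.29 (adjusted p = 1.66e-17). It was 0.88 ± 0.22 higher in VSMC-gate than LMC-gate cells (adjusted p = 0.00558), a call that was lost in DESeq2 (0.93), without the WT library (0.78) and without the library term (0.94). Within macrophages it was 2.09 ± 0.51 higher in *Lyve1*- than in *Lyve1*+ cells (adjusted p = 0.00664), at levels of 5.19 against 2.30 CPM in WT, from 7 and 41 UMIs, and 7.49 against 1.35 CPM in TNF-Tg, from 19 and 4 UMIs. This call was lost without WT, without TNF-Tg (1.24), with clusters in place of gates (1.44), with only the types compared and without the library term.

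*Lpl*, the secreted lipase (chr8:68880555-68906932, plus strand), was highest in *Ear2*+ phagocyte-like cells, which held 1744 CPM in tdT1 and 1130 in WT, with 738 in TNF-Tg. VSMC-gate cells held 1100 CPM in tdT1, 530 in tdT2 and 560 in WT, with 383 in TNF-Tg, and LMC-gate cells 385, 597, 163 and 98.5 CPM. The TNF-Tg library was the lowest in all 3 types. One cell gave 418 of the 1137 *Lpl* UMIs of the TNF-Tg VSMC-gate cells. *Lyve1*- macrophage-like cells held 301 CPM in WT against 122 in TNF-Tg, and *Lyve1*+ cells held 29.1 CPM in tdT2 and 40.4 in WT, with 26.7 in TNF-Tg. As a mean over types, *Lpl* was lower in macrophages than in stromal cells (log2 difference -2.14 ± 0.41, adjusted p = 4.75e-05), though *Lyve1*- cells lay above LMC-gate cells in WT and TNF-Tg. It was 2.80 ± 0.60 higher in *Lyve1*- than in *Lyve1*+ cells (adjusted p = 0.00193) and 2.15 ± 0.60 higher in *Lyve1*- cells than in inflammatory monocyte-like cells (adjusted p = 0.0225).

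*Lipa*, the lysosomal lipase (chr19:34492316-34527474, minus strand), was found in macrophages and stromal cells alike, at a higher mean level in the former. *Lyve1*+ cells held 140 CPM in tdT2 and 164 in WT, with 133 in TNF-Tg, *Ear2*+ phagocyte-like cells 134 in tdT1 and 125 in WT, with 152 in TNF-Tg, and *Lyve1*- cells 125 in WT against 48.5 in TNF-Tg. The 8 stromal sums lay between 35.7 and 61.9 CPM, a range that held the TNF-Tg value of the *Lyve1*- cells. Macrophages exceeded stromal cells by 1.04 ± 0.21 as log2 (adjusted p = 8.05e-05), and no difference passed among macrophages and monocytes or between the stromal gates.

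Of the fatty acid carriers, *Fabp5* was the more abundant in macrophages. In *Lyve1*- cells it lay at 99.3 CPM in WT against 738 CPM in TNF-Tg. In *Lyve1*+ cells it was 23.3 CPM in tdT2 and 48.8 in WT, with 236 in TNF-Tg. Inflammatory monocyte-like cells held 48.4, 118 and 191 CPM in the same order of libraries, and neutrophils 214, 179 and 248 CPM. *Fabp5* in the stromal gates ranged from 1.82 to 20.2 CPM, with TNF-Tg highest in both. Macrophages exceeded stromal cells by 3.92 ± 0.34 as log2 (adjusted p = 3.34e-11) and *Lyve1*- exceeded *Lyve1*+ cells by 1.64 ± 0.44 (adjusted p = 0.0141).

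*Fabp4* is best known as the fatty acid carrier of adipocytes and of capillary endothelium. Among the leukocytes it stood out in patrolling monocyte-like cells, at 386 CPM in TNF-Tg, where the 6 endothelial markers summed to 20.3 CPM with 4 of them at 0. Endothelial cells of tdT1 held 7640 CPM. All other gated myeloid and stromal sums stayed at or under 42.2 CPM. The gene lies 187731 bases from *Fabp5* on chromosome 3 (GRCm38.p6, *Fabp5* at chr3:10012585-10016610 on the plus strand and *Fabp4* at chr3:10204342-10208616 on the minus strand), with *Pmp2* and *Fabp9*, of the same family, between them. The last 600 bases of the *Fabp5* transcript shared 18.8% of their 31-base words with other annotated genes, most with *Gm6166*, and those of *Plin2* 14.7%, with *Gm12551*, and how reads there were assigned is not known. For the other 8 genes the share was 0 to 2.11%.

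*Plin2*, the lipid droplet coat (chr4:86626910-86670217, minus strand), differed little between libraries in macrophages. *Lyve1*+ cells held 256 CPM in tdT2 and 253 in WT, with 274 in TNF-Tg, and *Lyve1*- cells 241 in WT against 324 in TNF-Tg. LMC-gate cells held 38.8 to 90.3 CPM and VSMC-gate cells 23.3 to 44.8 CPM over the 4 libraries, the tdT replicates giving both ends of each range. Macrophages exceeded stromal cells by 2.35 ± 0.21 as log2 (adjusted p = 5.19e-11).

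*Spp1*, osteopontin (chr5:104435111-104441053, plus strand), was rare. In *Lyve1*- cells of TNF-Tg it reached 33.1 CPM, from 84 UMIs, against 2.22 CPM in WT, from 3 UMIs. *Lyve1*+ cells held 0 UMIs in tdT2 and 0.392 CPM in WT, with 0.676 CPM in TNF-Tg. The other gated types stayed at or under 13.5 CPM. VSMC-gate cells held 2.83 CPM in tdT1 and 1.01 CPM in TNF-Tg, with 0 UMIs in tdT2 and WT, so in TNF-Tg they lay above the *Lyve1*+ cells. *Spp1* was 4.67 ± 0.83 higher, as log2, in *Lyve1*- than in *Lyve1*+ cells (adjusted p = 0.000443), and 2.48 ± 0.73 higher in macrophages than in stromal cells (adjusted p = 0.00525). Most macrophage UMIs behind both differences were the 84 of the TNF-Tg *Lyve1*- cells. Without the TNF-Tg library *Spp1* was not tested in either comparison.

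**Figure D1:**
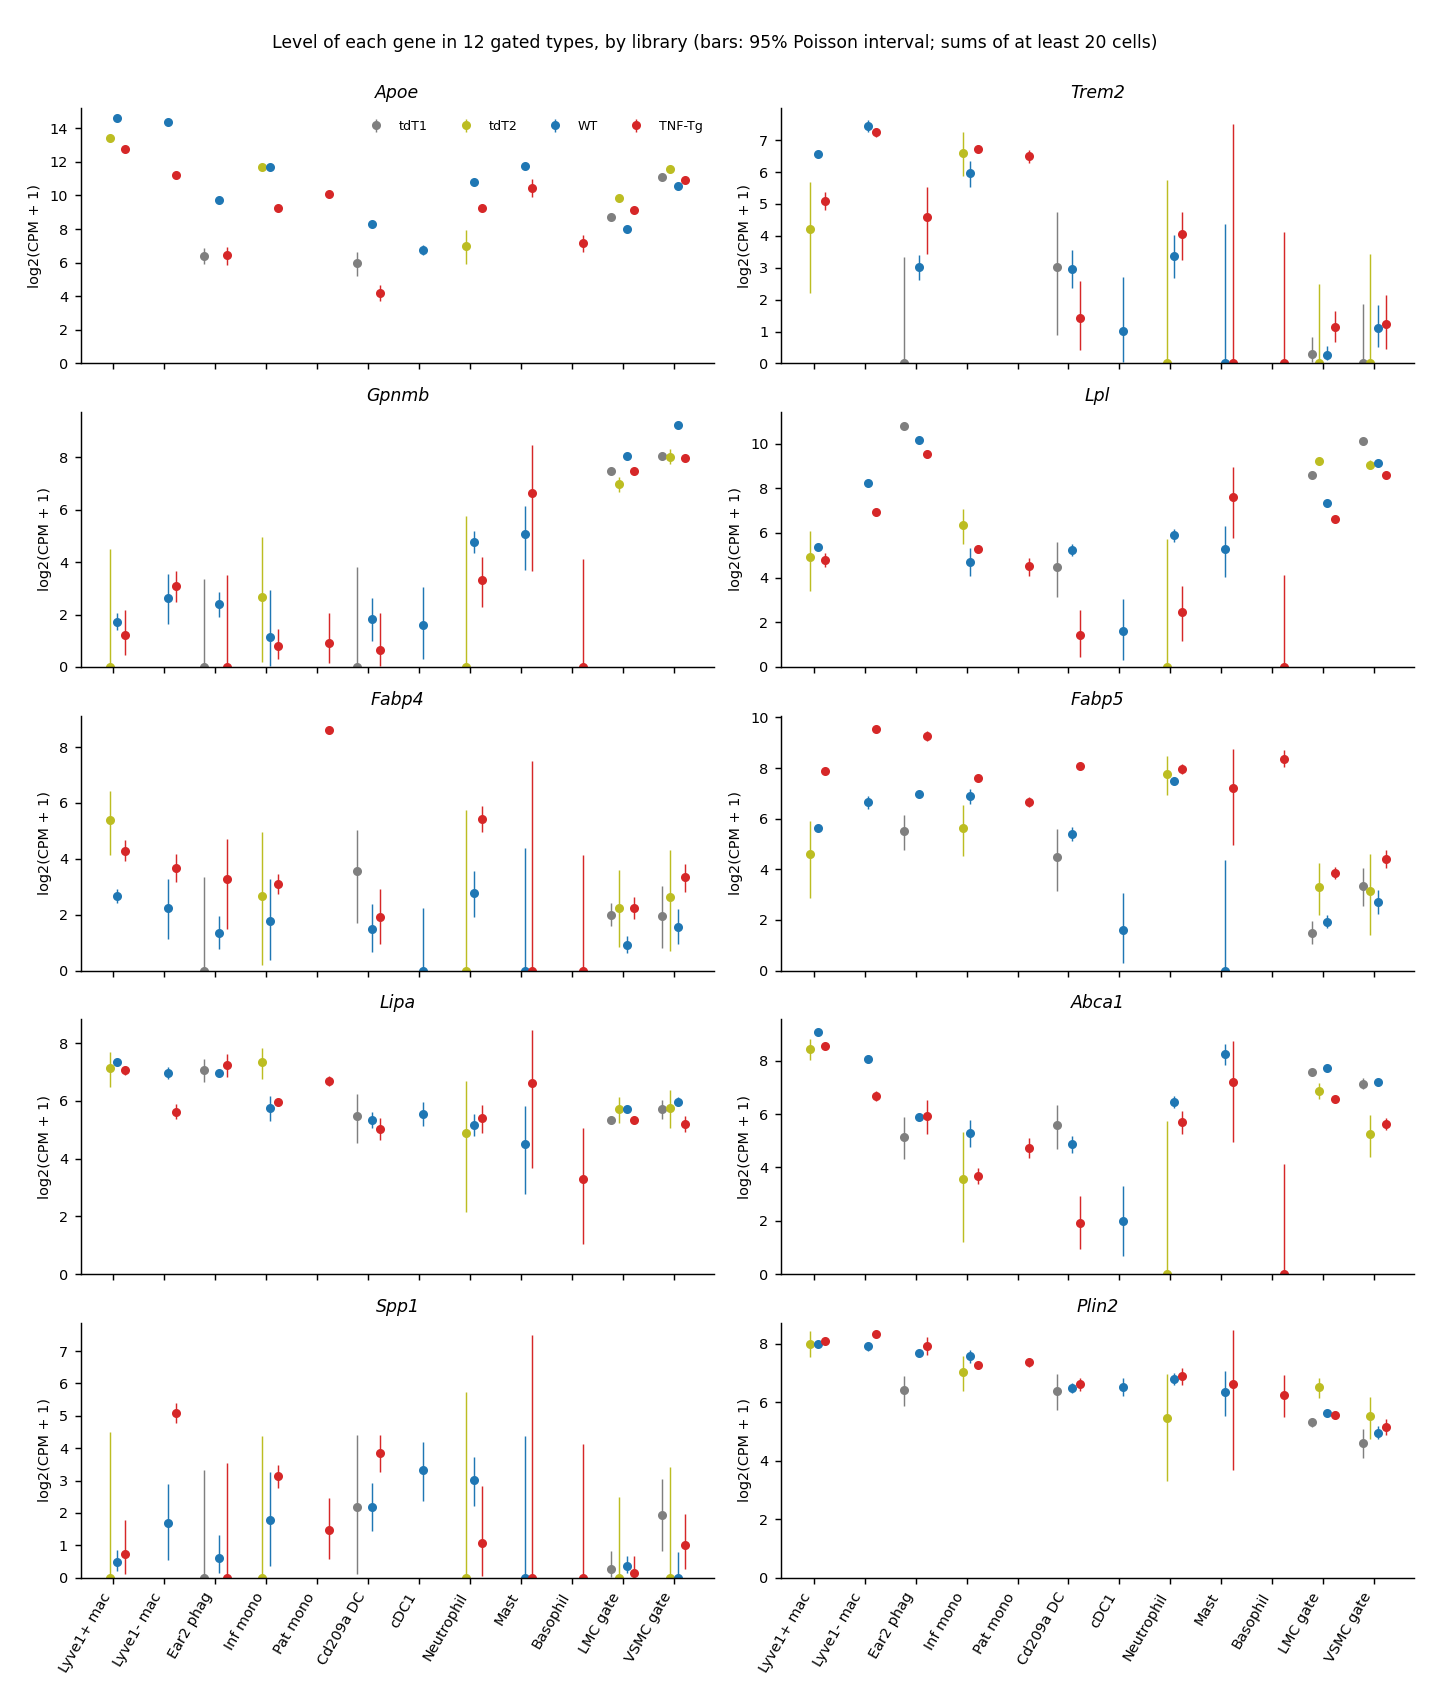
Level of each of the 10 genes as log2(CPM + 1) in 12 gated types (x axis), 1 point per library in tdT1 (grey), tdT2 (olive), WT (blue) and TNF-Tg (red), with 95% Poisson intervals that cover counting error only. *Gpnmb* is highest in the 2 stromal gates, *Trem2* in macrophage and monocyte types, and the TNF-Tg points of *Fabp5* lie above those of the other libraries.

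In the 4 comparisons between types the 10 genes were called as follows, all from 1 edgeR fit over 30 sums with a call at an adjusted p under 0.05. Between macrophages and stromal cells all 10 passed, 8 higher and 2 lower in macrophages, where 57.2% of the 12635 genes tested passed, 24.0% higher and 33.2% lower. *Spp1* could be tested there only with the TNF-Tg library in the fit. Between *Lyve1*- and *Lyve1*+ cells 6 passed, *Spp1*, *Lpl*, *Gpnmb*, *Fabp5* and *Trem2* higher and *Abca1* lower in *Lyve1*- cells, against 9.71% of all genes, 3.74% higher and 5.97% lower. Between *Lyve1*- cells and inflammatory monocyte-like cells 3 passed, *Abca1*, *Gpnmb* and *Lpl*, all higher in the macrophages, against 7.40% of all genes, 3.77% higher and 3.63% lower. Between VSMC-gate and LMC-gate cells 2 passed, *Apoe* and *Gpnmb*, both higher in VSMC-gate cells, against 10.9%, 5.68% higher and 5.19% lower. The median log2 differences of the 10 genes were 1.85, 0.85, 1.16 and 1.06 in the 4 comparisons, beside -0.14, -0.11, -0.07 and -0.01 over all genes. The *Lyve1*- cells entered with the WT and TNF-Tg sums alone, since tdT1 and tdT2 held 11 and 7 of them, so the spread of that type was borrowed from the others. Of the 6 calls between the macrophage types, that of *Lpl* was left without the TNF-Tg library, where *Spp1* was not tested, that of *Spp1* was left without the library term, and in DESeq2 those of *Fabp5* and *Trem2* did not pass. Without WT those of *Gpnmb* and *Abca1* did not pass, without tdT2 that of *Trem2*, and with clusters those of *Gpnmb*, *Fabp5* and *Abca1*. Against the monocyte-like cells the call of *Lpl* was lost in DESeq2, without WT (1.55) and without the library term, and that of *Gpnmb* without TNF-Tg (1.23), with clusters and without the library term.

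**Figure D2:**
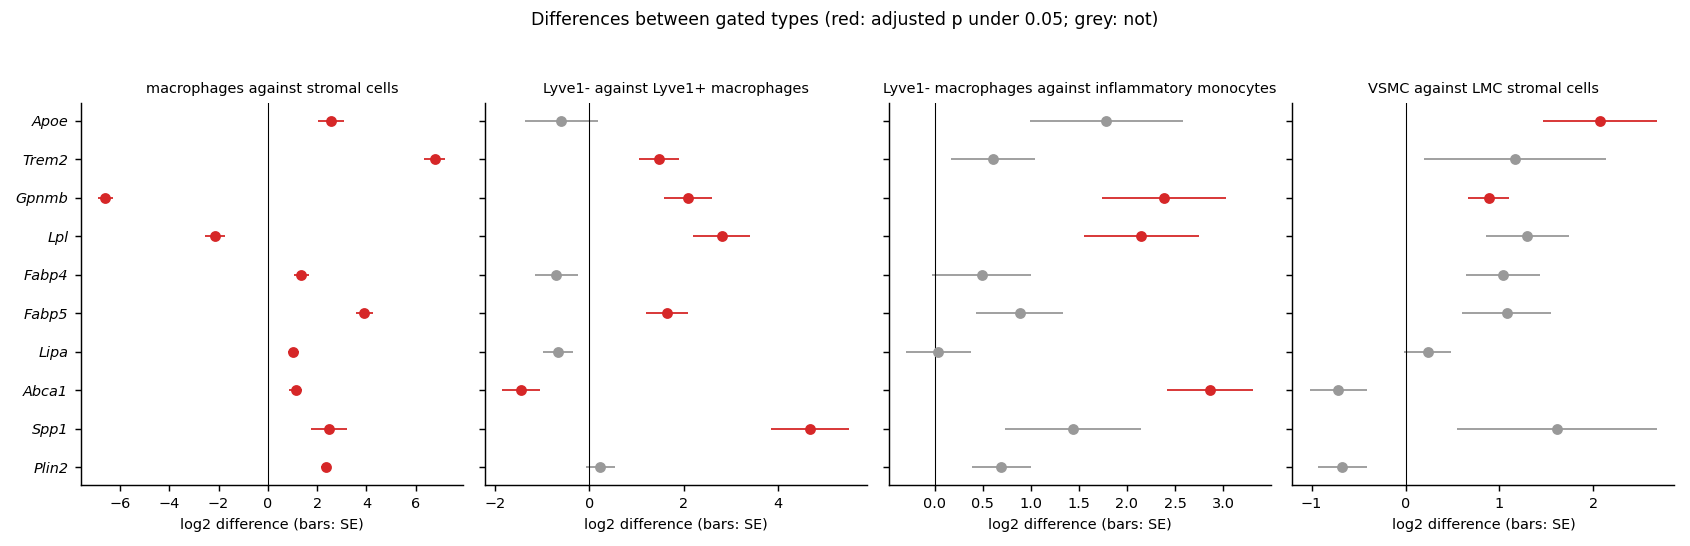
Log2 differences (x axis) of the 10 genes (y axis) in 4 comparisons between gated types, with SE bars, from edgeR. Red points passed an adjusted p of 0.05 and grey points did not. *Gpnmb* and *Lpl* lie left of 0 in macrophages against stromal cells and right of 0 in *Lyve1*- against *Lyve1*+ macrophages.

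Genes that go with lipid uptake, the lysosome, efflux, lipid droplets and sterol synthesis, from lists drawn up by their known roles, were read from the same fit. These lists were chosen with earlier results of these data known, so their counts are a description and not an independent test. The medians of the 5 lists between macrophages and stromal cells ran from -0.88 for sterol synthesis to 1.56 for efflux. In that comparison 10 of 15 tested lysosomal genes were higher and 3 lower in macrophages. *Cd68* (6.69 ± 0.29), a lysosomal glycoprotein, and *Atp6v0d2* (6.56 ± 0.76), a proton pump subunit, were among the higher, and *Cd9*, a tetraspanin often listed for lipid-associated macrophages, was lower (-7.41 ± 0.53, adjusted p = 3.08e-13). Of the 9 uptake genes tested, 4 were higher and 3 lower. The scavenger receptors *Msr1* (6.79 ± 0.37) and *Cd36* (6.61 ± 0.35) were higher, and the VLDL receptor gene *Vldlr* was lower (-6.14 ± 0.30). Of 10 efflux genes 6 were higher and 1 lower, among them *Apoc2* (3.97 ± 0.49) and *Abcg1* (2.69 ± 0.31). Of 11 droplet genes 3 were higher and 4 lower, with *Mgll*, the monoglyceride lipase, at -8.51 ± 0.41. None of 12 sterol synthesis genes was higher and 6 were lower.

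Between the macrophage types, the uptake list had 2 genes higher and 1 lower in *Lyve1*- cells of 9 tested, with *Axl* at 2.06 ± 0.66 and *Cd36* at -3.35 ± 0.45. The lysosomal list had 1 higher, *Lgals3* (1.91 ± 0.43), and 1 lower, *Cd63* (-1.43 ± 0.42), of 15. The efflux list had 3 higher and 1 lower of 10, with *Apoc1* at 2.68 ± 0.47 and *Pltp* at -1.75 ± 0.54. The droplet list had 2 higher and 1 lower of 11, among them *Pparg*, the fatty acid-sensing nuclear receptor (3.43 ± 0.73). Of 12 sterol synthesis genes 1 passed, *Sc5d*, lower. Against inflammatory monocyte-like cells, 5 lysosomal genes were higher and 2 lower in *Lyve1*- cells, and 2 uptake genes were higher, *Cd36* (4.23 ± 0.58) and *Mertk* (3.66 ± 0.42), a receptor for apoptotic cells. The efflux list had 2 higher and 1 lower, the droplet list 1 lower and the sterol list no call. Between the stromal gates, *Apoc1* (3.48 ± 0.43), *Pltp* and *Abcg1* of the efflux list were higher in VSMC-gate cells and *Mylip* lower, *Vldlr* and *Axl* were lower, *Mgll* was lower (-2.08 ± 0.21) and *G0s2* higher, *Sc5d* was lower, and no lysosomal gene passed.

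The comparison of TNF-Tg with WT asked how the genes stood in arthritic against healthy mice. It was made in the 9 types with at least 20 cells in both libraries. A gene was read in a type when it had at least 20 UMIs in one of the 2 libraries, and was called when it was past 2-fold. Intervals are exact and cover counting error only. All 10 genes were read in at least 3 of the 9 types, *Apoe* and *Abca1* in 9, *Fabp5*, *Lpl*, *Lipa* and *Plin2* in 8, *Fabp4* in 6, *Gpnmb* in 5, *Trem2* in 4 and *Spp1* in 3.

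*Fabp5* was higher in TNF-Tg in all 8 types in which it was read, past 2-fold in 6. The fold was 7.43 (6.23 to 8.92) in *Lyve1*- cells, 4.83 (4.37 to 5.34) in *Lyve1*+ cells, 6.58 (5.36 to 8.14) in *Cd209a*+ dendritic-like cells, 4.84 (4.13 to 5.64) in *Ear2*+ phagocyte-like cells, 4.82 (3.56 to 6.57) in LMC-gate cells and 3.67 (2.31 to 5.97) in VSMC-gate cells. Single cells weighed on 2 of these. In *Ear2*+ cells 159 of 213 TNF-Tg UMIs came from 1 cell, and without the cell with most UMIs in each library the log2 ratio went from 2.27 to 0.47. In dendritic-like cells 244 of 482 TNF-Tg UMIs came from 1 cell. Without that cell the TNF-Tg level went from 272 to 136 CPM, beside 41.3 CPM in WT. The log2 ratio without the cell with most UMIs in each library was 2.13. In *Lyve1*- cells the ratio held (log2 2.89, and 2.90 without the cell with most UMIs in each library). Inflammatory monocyte-like cells and neutrophils, within 2-fold, had log2 ratios of 0.70 and 0.47. With clusters in place of gates each became 0.19, close to no change. Clusters gave higher ratios in *Lyve1*- cells (3.25) and *Lyve1*+ cells (2.48, against 2.27 with gates). In the 7 types where a tdT library also gave a sum, TNF-Tg lay above every other library in all 7 for *Fabp5*. T cells, at 86.7 CPM in WT against 28.0 CPM in TNF-Tg, differed in the other direction.

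*Fabp4* was read in 6 types, in 4 of them only through its TNF-Tg count, so no direction is read from those. In the other 2, *Lyve1*+ cells and LMC-gate cells, it was higher in TNF-Tg past 2-fold, the latter from 34 against 22 UMIs, and there the log2 ratio went from 2.06 to 0.22 after thinning each cell to 3000 UMIs. It was 5.33 CPM in WT against 18.6 in TNF-Tg *Lyve1*+ cells, but 40.7 CPM, from 7 UMIs, in those of tdT2. There 6 of the 7 UMIs came from 1 cell, and the tdT2 level without it was 5.96 CPM. TNF-Tg stood above every other library in 3 of 5 types, the inflammatory monocyte-like cells, neutrophils and VSMC-gate cells. All 3 were among those read only through the TNF-Tg count. In inflammatory monocyte-like cells, with 2 UMIs in WT against 51 in TNF-Tg, the interval of the log2 ratio ran from -0.26 to 4.75.

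*Apoe* was lower in TNF-Tg in all 7 myeloid types read, each past 2-fold, though in neutrophils not once doublets were removed, and higher in LMC-gate cells. It was 8.89-fold lower (8.64 to 9.14) in *Lyve1*- cells, 3.69-fold lower (3.64 to 3.75) in *Lyve1*+ cells, 5.31-fold lower in inflammatory monocyte-like cells, 9.75-fold lower in *Ear2*+ cells, 18.2-fold lower in dendritic-like cells, 2.89-fold lower in neutrophils and 2.40-fold lower in mast cells. Without the cells called doublets, 23 of 373 in WT and 7 of 231 in TNF-Tg, the log2 ratio in neutrophils went from -1.53 to -0.38, no longer past 2-fold, and in mast cells a mean over cells gave -0.98. Other alternatives in neutrophils stayed past 2-fold. The ratio was -2.06 with clusters, -1.98 without the cell with most UMIs in each library, -1.70 as a mean over cells and -1.15 after thinning. T cells held 974 CPM in WT against 22.0 CPM in TNF-Tg. In *Ear2*+ cells the tdT1 value, 84.2 CPM, was level with the TNF-Tg value, 85.8 CPM, and WT stood alone at 837 CPM. Dendritic-like cells held 61.0 CPM in tdT1 and 318 in WT, with 17.5 in TNF-Tg, and neutrophils 128 in tdT2 and 1762 in WT, with 611 in TNF-Tg. The *Apoe* level of T and erythroid cells moved with these values, and its part in them was not tested. In the macrophage types the WT levels, 21183 and 25425 CPM, lay far above the 974 and 1917 CPM of T and erythroid cells in that library. Of the 7 types with a tdT sum, TNF-Tg was below every other library in 3: *Lyve1*+ cells, inflammatory monocyte-like cells and dendritic-like cells. In LMC-gate cells *Apoe* was 2.21-fold higher (2.13 to 2.29) than in WT, but the TNF-Tg value, 566 CPM, lay between those of tdT1 and tdT2, 411 and 936 CPM. The 2-fold call was lost with clusters in place of gates, where the log2 ratio was 0.60 against 1.14, and after thinning (0.95). Of the LMC-gate cells, 89.8% in WT and 76.4% in TNF-Tg fell in 1 cluster.

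*Abca1* was lower in TNF-Tg past 2-fold in 6 of 9 types. The fold was 2.63 (2.23 to 3.1) in *Lyve1*- cells, 3.29 (2.11 to 5.02) in inflammatory monocyte-like cells, 9.93 (4.08 to 31.4) in dendritic-like cells, 2.22 (2.07 to 2.39) in LMC-gate cells and 3.03 (2.53 to 3.65) in VSMC-gate cells. The sixth, mast cells, rested on 3 UMIs in TNF-Tg, and its interval included no change. With clusters the log2 ratio in *Lyve1*- cells was -2.65 against -1.39, and after thinning the ratios in inflammatory monocyte-like cells (-0.89) and LMC-gate cells (-0.89) were within 2-fold. *Lyve1*+ cells were lower by less, with a log2 ratio of -0.51 (-0.60 to -0.42). Against every other library TNF-Tg was below in 2 of 7 types, the dendritic-like and the LMC-gate cells. The tdT2 values in VSMC-gate and monocyte-like cells were as low as those of TNF-Tg.

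The lipases did not move as one. *Lpl* was lower in TNF-Tg past 2-fold in 3 of 8 types, *Lyve1*- cells (2.47-fold, 2.13 to 2.87), dendritic-like cells (3 against 102 UMIs) and neutrophils (4 against 100 UMIs), and below every other library in 5 of 7. In *Lyve1*- cells the log2 ratio went from -1.30 to -0.49 with clusters and -0.91 with the macrophage cut at 1.0, both within 2-fold. In *Lyve1*+ cells the log2 ratio was -0.60. It was 0.03 with clusters, but -1.20 as a mean over cells and -1.67 after thinning, both past 2-fold. In VSMC-gate cells the log2 ratio was -0.55 (-0.65 to -0.45), and -1.15 without the cell with most UMIs in each library. *Lipa* was lower past 2-fold in 1 of 8 types, *Lyve1*- cells, at 2.57-fold (2.02 to 3.27).

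*Trem2* was read in 4 types. It was 2.84-fold lower (2.32 to 3.52) in *Lyve1*+ cells, where the tdT2 value, 17.5 CPM, lay below that of TNF-Tg, and 3.20-fold higher (1.30 to 6.90) in *Ear2*+ cells, from 8 UMIs in TNF-Tg (log2 1.68, and 0.37 after thinning). The log2 ratio was 0.78 (0.37 to 1.22) in inflammatory monocyte-like cells. *Gpnmb* was lower past 2-fold in 2 of 5 types, VSMC-gate cells (2.40-fold, 2.21 to 2.60) and neutrophils (8 against 45 UMIs). In neutrophils the log2 ratio was -1.57, and -0.28 without doublets. In VSMC-gate cells, tdT1 and tdT2 were as low as TNF-Tg, so WT was the library that stood apart. *Plin2* was within 2-fold in all 8 types read, with log2 ratios from -0.28 to 0.43. *Spp1* was read in 3 types, in each only through its TNF-Tg count, so no direction is read from them. TNF-Tg held 84 UMIs against 3 in WT in *Lyve1*- cells and 24 against 10 in dendritic-like cells. In inflammatory monocyte-like cells it was 52 against 2, and the interval of the log2 ratio, -0.23 to 4.78, included no change. After thinning no WT *Lyve1*- cell held *Spp1*, so the log2 ratio of 1.65 there rested on the floor of 3 UMIs. Neutrophils, under the minimum, held 12 UMIs in WT against 1 in TNF-Tg.

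By type, *Lyve1*- cells had the most calls, 3 genes higher and 4 lower of 9 read, where 13.6% of all genes were called, 7.21% higher and 6.44% lower. *Lyve1*+ cells had 2 higher and 2 lower of 9, against 10.6% of all genes, 4.27% and 6.33% by direction. *Ear2*+ cells had 2 and 1 of 8 (15.3% of all genes, 3.88% higher and 11.4% lower), inflammatory monocyte-like cells 2 and 2 of 9 (11.3%, 6.39% and 4.91%), and dendritic-like cells 2 and 3 of 7 (14.7%, 4.51% and 10.2%). Neutrophils had 1 and 3 of 8 (19.5%, 4.10% and 15.4%). LMC-gate cells had 3 and 1 of 8 (10.9%, 4.87% and 6.07%) and VSMC-gate cells 2 and 2 of 8 (17.0%, 3.67% and 13.3%). Mast cells had both genes read lower (27.4%, 9.51% and 17.9%), with 20 cells in TNF-Tg. Some calls passed the minimum of 20 UMIs only through the library where the gene was higher. Through TNF-Tg these were *Fabp4* and *Spp1* in *Lyve1*- and inflammatory monocyte-like cells, *Spp1* in dendritic-like cells, and *Fabp4* in neutrophils and VSMC-gate cells. Through WT they were *Lpl* and *Abca1* in dendritic-like cells, *Lpl* and *Gpnmb* in neutrophils, and *Abca1* in mast cells. The 2 tdT replicates themselves differed past 2-fold in 15.9% of genes in LMC-gate cells and 17.8% in VSMC-gate cells.

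Set against every other library that gave a sum, the TNF-Tg value lay outside the range for between 4 and 7 of the genes read in a type. In *Lyve1*+ cells it was above for 2 genes and below for 3 of 9, where 35.7% of all genes were above and 28.8% below. In *Ear2*+ cells it was above for 5 and below for 1 of 8 (29.5% and 45.4%), in inflammatory monocyte-like cells 4 and 1 of 9 (30% and 26.2%), in dendritic-like cells 3 and 4 of 7 (36.2% and 38.1%) and in neutrophils 4 and 0 of 8 (25.6% and 25.1%). In LMC-gate cells it was above for 1 and below for 3 of 8 (27.3% and 31.2%), and in VSMC-gate cells 2 and 3 of 8 (22.8% and 40.6%). *Fabp5* was above in all 7 types, *Plin2* in 4 and *Fabp4* in 3, while *Lpl* was below in 5, *Lipa* in 4 and *Apoe* in 3. The 3 types of *Fabp4* were read only through its TNF-Tg count, as were the 2 in which *Spp1* was above.

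Detection was compared after thinning each cell to 3000 UMIs, which left out 11 WT and 4 TNF-Tg *Lyve1*- cells that were shallower, at median depths of 12448 and 14967 UMIs before thinning. In *Lyve1*- cells *Fabp5* was found in 22 of 107 WT cells (20.6%, exact 95% interval 13.4 to 29.5) and 94 of 159 TNF-Tg cells (59.1%, 51.1 to 66.8). Without thinning the shares were 44.9% and 90.8%. T cells held it in 16.1% of WT and 7.25% of TNF-Tg cells, at median depths of 8681.5 and 6554.5 UMIs before thinning, and LMC-gate cells in 0.871% and 2.66%, at 16094 and 12481 UMIs. *Spp1* was found in 0 of 107 WT cells (exact upper limit 3.39%) and in 0 T cells of either library, and in 11 of 159 TNF-Tg cells (6.92%, 3.50 to 12). *Trem2* was found in 41.1% of WT and 33.3% of TNF-Tg cells, with overlapping intervals. *Lpl* was found in 34.6% and 13.2%, *Abca1* in 50.5% and 22.0%, and *Lipa* in 28.0% and 12.6%, each with intervals apart. The intervals of shares, here and below, take cells as units and leave out the spread between libraries, so intervals apart are no test of the condition. *Plin2* was found in 53.3% and 52.8%. In *Lyve1*+ cells *Fabp5* was found in 21.0% of 238 TNF-Tg cells against 11.1% of 1387 in WT, and *Trem2* in 10.1% against 19.5%.

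**Figure D3:**
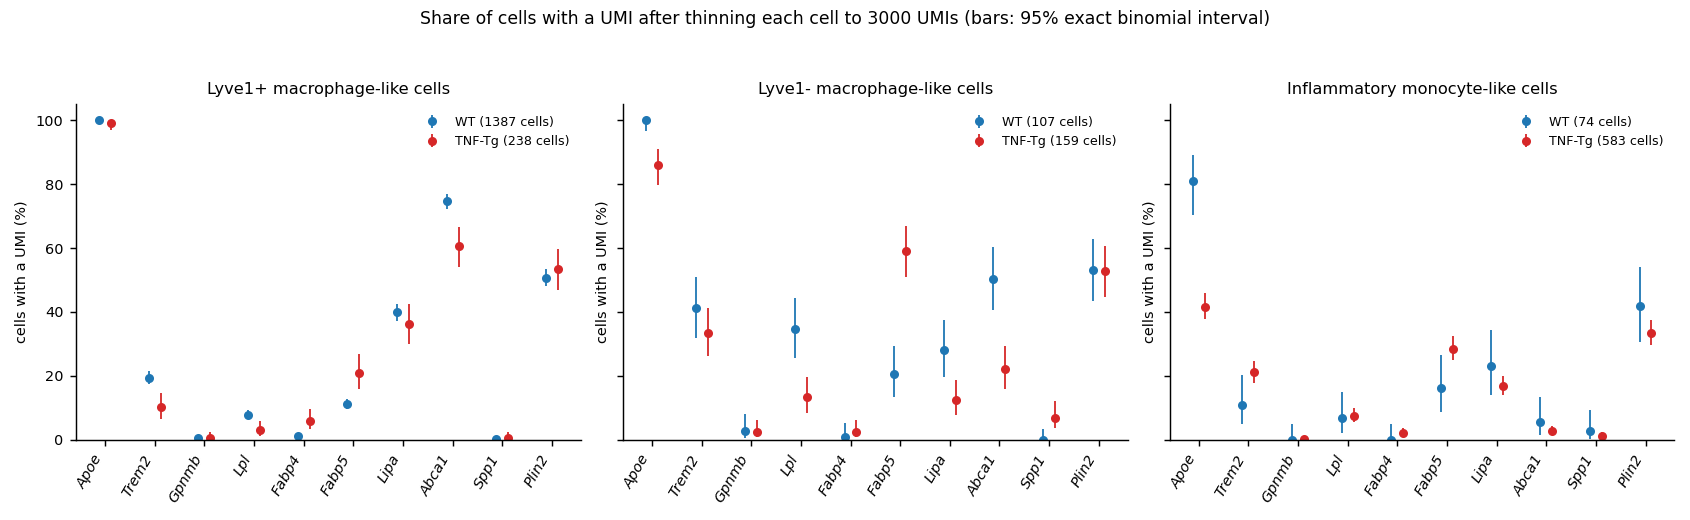
Share of cells with at least 1 UMI of each gene (y axis, percent) after thinning to 3000 UMIs, in WT (blue) and TNF-Tg (red) cells of 3 myeloid types, with exact 95% binomial intervals that cover counting error only. The red *Fabp5* point stands far above the blue one in *Lyve1*- macrophage-like cells, 59.1% against 20.6%, and the *Plin2* points lie close together, at 52.8% and 53.3%.

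The genes were then read together in single cells, at full depth. *Trem2*, *Gpnmb* and *Spp1* were found in the same cell in 0 of 1432 *Lyve1*+ WT cells, with an exact upper limit of 0.257%, in 1 of 118 *Lyve1*- WT cells and in 2 of 163 *Lyve1*- TNF-Tg cells. *Trem2* with *Spp1* was found in 22 of the 163 TNF-Tg cells (13.5%, 8.66 to 19.7) and in 1 of the 118 WT cells. *Trem2* with *Fabp5* was found in 110 (67.5%, 59.7 to 74.6) and 35 (29.7%, 21.6 to 38.8). *Apoe*, *Trem2*, *Lpl* and *Fabp5* were all found in 22.1% of TNF-Tg and 18.6% of WT cells, with overlapping intervals. In stroma, *Gpnmb* with *Lpl* was found in 72.2% of WT and 36.3% of TNF-Tg VSMC-gate cells and in 58.9% and 34.0% of LMC-gate cells, while the tdT replicates lay at 55.9% and 38.2% in VSMC-gate cells and 47.3% and 33.8% in LMC-gate cells. These shares were not thinned, and depth differed between libraries. Median UMIs in WT, TNF-Tg, tdT1 and tdT2 were 10453.5, 9391.5, 8147 and 4633 in VSMC-gate cells. In LMC-gate cells they were 16139, 12525, 13440 and 6069 in the same order.

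The wider lipid lists were also read in TNF-Tg against WT. In *Lyve1*- cells the efflux list had 2 genes higher and 4 lower of 10, *Cyp27a1* (-2.71), *Pltp* (-2.66), *Abcg1* (-1.99) and *Mylip* (-1.84) being lower as log2. The 2 higher, named after their values were seen, were *Apoc2* (1.64) and *Apoc1* (1.14). The lysosomal list had 2 higher, the cathepsins *Ctsl* (1.64) and *Ctsd* (1.21), and none lower of 12, and the uptake list had *Msr1* higher (1.31) and *Axl* lower (-5.05) of 7. No droplet or sterol synthesis gene was called there. In *Lyve1*+ cells *Msr1* (1.12), *Marco* (3.66) and *Sqle* (1.78) were higher and *Mertk*, *Axl*, *Cd9*, *Pltp* and *Cyp27a1* lower. Median log2 ratios of the lists in the 2 macrophage types ran from -0.79 to 0.58, with medians over all genes of 0.02 and 0.09. In the other 5 myeloid types 0 to 3 genes of a list were higher and 0 to 4 lower. The dendritic-like cells had 3 of 7 efflux genes lower, *Pltp* (-2.62), *Abcg1* (-1.88) and *Mylip* (-1.59).

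Sterol synthesis genes were higher in TNF-Tg than in WT in both stromal gates. That list, like the others, was chosen with earlier results of these data known, so the shares over all genes below are no independent test of it. In LMC-gate cells 10 of 12 genes were higher in TNF-Tg past 2-fold and none lower, with a median log2 ratio of 2.19 against -0.04 over all genes, and 4.87% of all genes were called higher. In VSMC-gate cells it was 9 of 11 read, with a median of 2.01 against -0.22, and 3.67% of all genes. In LMC-gate cells *Idi1*, an isomerase of the isoprenoid steps, lay at 16.0 CPM in tdT1, 23.8 in tdT2 and 9.74 in WT, with 71.3 in TNF-Tg, and *Sqle*, the squalene epoxidase, at 14.9, 15.1, 5.62 and 41.3 CPM. *Fdft1*, the squalene synthase gene, likewise highest in TNF-Tg and lowest in WT, had a log2 ratio of 2.98. In VSMC-gate cells *Sqle* had the largest ratio (3.38), from 11 against 67 UMIs. WT was the lowest library for most of these genes and TNF-Tg the highest. TNF-Tg lay above all 3 other libraries for 10 of 12 genes in LMC-gate cells and 8 of 12 in VSMC-gate cells, where 27.3% and 22.8% of all genes did. Summed over the list the levels were 299, 374, 164 and 566 CPM in LMC-gate cells in the same order, and 215, 145, 90.0 and 292 CPM in VSMC-gate cells. Stromal cells that lay between both gates had 8 of 11 higher and none lower. Among the myeloid types, 3 of 10 were higher in inflammatory monocyte-like cells, where 6.39% of all genes were. It was 3 of 11 in dendritic-like cells (4.51% of all genes) and 2 of 12 in *Lyve1*+ cells (4.27%), with none lower in these types. Neutrophils had 1 higher and 1 lower of 5. The remaining myeloid types had none higher, and *Ear2*+ cells had 1 lower of 9. Of the other lists the stromal gates had at most 3 genes called in either direction, *Apoc2* among the higher and *Cyp27a1* among the lower in both. *Tyrobp*, a leukocyte gene of the lysosomal list, was also higher in both (LMC-gate 19.0 CPM in WT against 68.8 in TNF-Tg), and the summed macrophage markers there were 94.6 and 54.9 CPM. *Apoc2*, at 0.283 and 5.90 CPM in LMC-gate cells, was among the leading genes of the inflammatory and patrolling monocyte clusters. Cells of these 2 gates made up 1.37% and 0.0911% of WT against 17.5% and 7.34% of TNF-Tg. The part of leukocyte RNA in the stromal values was not tested.

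**Figure D4:**
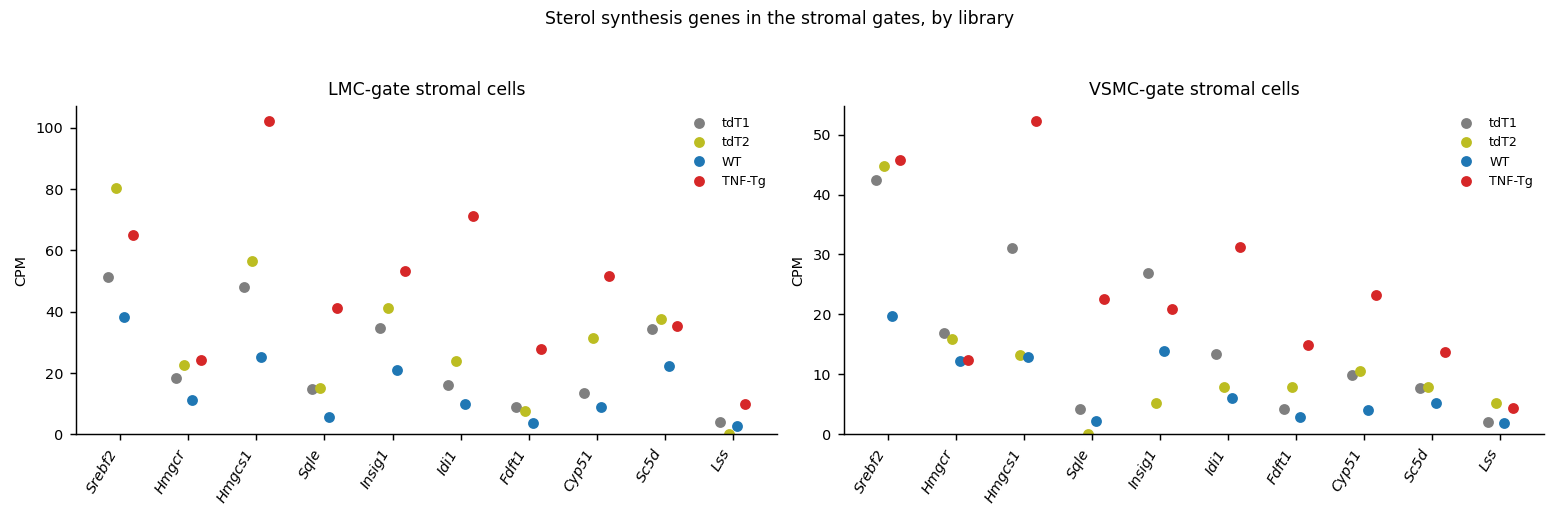
CPM (y axis) of 10 sterol synthesis genes in LMC-gate and VSMC-gate stromal cells, 1 point per library in tdT1 (grey), tdT2 (olive), WT (blue) and TNF-Tg (red). TNF-Tg is the highest point for 8 of these 10 genes in LMC-gate cells, and WT lies below both tdT libraries for 9.

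Likeness was measured as Pearson's r of log2(CPM + 10) over the 30 sums of type and library, among 6762 genes with at least 50 CPM in a sum, and is a description, since sums of 1 library or type share cells' depth and make-up. The gene most like *Gpnmb* was *Mmp23* (r = 0.987), then *Ghr* and *Entpd2*. *Plin2* went most closely with *Rnpep* (0.940) and *Adgre1*, *Fabp4* with *Cd300e* (0.883), *Abca1* with *Selenop* (0.870), *Trem2* with *Tlr7* (0.853), *Fabp5* with *Bud31* (0.839) and *Lipa* with *Psap* (0.805). *Apoe* with *Selenbp1* and *Lpl* with *Phlda1* both reached 0.779, and *Spp1* reached 0.604 with *Dynlt1a*. Among the 10 genes themselves the closest pair was *Trem2* and *Plin2* (0.762), then *Apoe* and *Abca1* (0.663), and *Gpnmb* ran opposite to *Plin2* (-0.718).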

How the data were processed

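The authors sorted cells, made 10x Genomics 3' libraries and sequenced tdT1 on a NextSeq 550 and the others on a NovaSeq. The deposited matrices hold raw UMI counts per gene and cell, with no normalisation. Their headers name Cell Ranger 3.1.0 for tdT1 and 6.0.1 for the others, while the submitters' processing notes name Cell Ranger 3.1.0, Seurat 4.0.3 and mm10. The annotation release is not given in the sources used here. tdT1 lists 31053 genes and the others 32287, so CPM used the 30406 shared ones.

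Cells were gated by marker scores, the mean of ln(1 + UMIs per 10000) over a list, with cuts set after the score distributions were seen. The members and gene lists were chosen with earlier results of these data known. The named genes were the 10 members, and of each lipid list at most 4 past the threshold with the largest log2 difference. Cells that Scrublet (scanpy 1.11.5) called doublets, 0 to 137 per library, were kept, and removed as an alternative. Sums of at least 20 cells were tested with edgeR 4.0.16 (TMM, quasi-likelihood, library block, Benjamini-Hochberg adjustment, 0.05). Samples of a type are libraries of pooled mice. With library as a block, p-values measure the spread left among the sums after type and library, estimated over all gated types together. They do not measure the whole spread between libraries. Ratios of TNF-Tg to WT had exact conditional intervals (95%) and a floor of 3 UMIs. Scripts were tested on simulated data. Promoters were read from RefSeq tables. Alternatives were DESeq2 1.42.0, TMM scaling, no filter on low counts, only the types compared, each library left out, a quality filter (at most 10% mitochondrial UMIs, at least 500 genes), Seurat 5.3.0 clusters and thinning. Macrophage cuts of 1.0 and 1.4 in place of 1.2, sums of at least 5 cells and leaving out the cell with most UMIs were added after the data were seen. Single values of some genes of the lists are not reported here.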

Additional observations from a re-analysis of the deposited data

Results flagged for a closer look

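*Apoe* in TNF-Tg against WT went in opposite directions in different types, and this difference was not tested, since each condition had 1 library. The log2 ratio was 1.14 in LMC-gate cells. It was -1.88 in *Lyve1*+ macrophage-like cells, -3.15 in *Lyve1*- macrophage-like cells, -3.29 in *Ear2*+ phagocyte-like cells, -2.41 in inflammatory monocyte-like cells, -4.19 in dendritic-like cells, -1.53 in neutrophils and -1.26 in mast cells. With clusters in place of gates the LMC-gate ratio was 0.60. The neutrophil ratio was -0.38 without doublets and -2.06 with clusters. The LMC-gate value of TNF-Tg lay between the values of the 2 tdT libraries.

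*Trem2* likewise had a log2 ratio of 1.68 in *Ear2*+ phagocyte-like cells, from 8 TNF-Tg UMIs (0.37 after thinning), and of -1.51 in *Lyve1*+ macrophage-like cells. This difference was not tested either.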

How the results depend on the processing

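Between macrophages and stromal cells 9 or 10 members were called under every alternative run. Between *Lyve1*- and *Lyve1*+ cells, 6 members in the main fit became 3 with Seurat clusters, and 1 to 6 when each library was left out, with 508 to 1249 genes against 1227. Against inflammatory monocyte-like cells 3 members became 5 without the low-count filter and 2 to 3 with a library left out, and 935 genes became 1427 with clusters and 274 to 949 with a library left out. There 476 of 935 calls were higher in edgeR and 599 of 941 in DESeq2. Between VSMC-gate and LMC-gate cells 2 members became 1 in DESeq2, 1 with sums of at least 5 cells (an alternative added after the data were seen), 5 without the filter, 5 with clusters and 6 with only the types compared, where 2357 genes were called against 1374, and 1 to 3 with a library left out (778 to 1209 genes). The cause was not tested.

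With no replicate block, that is without the library term, 1, 1 and 0 members were called in these 3 comparisons, in place of 6, 3 and 2, and 451, 348 and 599 genes. Between macrophages and stromal cells 9 members were, the call of *Abca1* (log2 difference 1.03) being lost. No paired analysis was possible between WT and TNF-Tg because each has 1 library.

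For TNF-Tg over WT, members past 2-fold went from 4 to 1 in neutrophils without doublets, to 2 with clusters and to 1 after thinning, from 4 to 2 in monocyte-like cells, 5 to 3 in dendritic-like cells and 4 to 1 in each stromal gate after thinning, which leaves fewer counts, and from 2 to 1 in mast cells with a mean over cells. *Gpnmb* in neutrophils reversed to 1.08 with clusters, and in monocyte-like cells *Spp1* reversed to -0.277 after thinning. The thinned *Fabp4* ratio there, counted as reversed, was set to 0 because the floor of 3 UMIs gave no bound, so it is not a measured loss of the difference. TMM scaling factors of TNF-Tg over WT, as log2, were 0.823 in mast cells, -0.169 in VSMC-gate cells, -0.115 in neutrophils and -0.110 in monocyte-like cells, and under 0.1 in size elsewhere. Of the members' single ratios under all alternatives, 510 moved by less than their counting interval, 93 by more and 3 reversed. Mast cells of TNF-Tg had too few UMIs to thin. Low counts limit *Spp1*, *Fabp4* and every value from tdT1 and tdT2 leukocytes.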
